A study of Mus musculus with 4 samples.

Results

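The cells described here, called macrophages by the counts below, came from 2 mouse mammary tumours and carried many transcripts of Arg1. They were chosen by their own counts: at least 500 genes, at most 10% mitochondrial UMIs (unique molecular identifiers, 1 for each captured transcript), no Epcam or Cd3e UMI, at least 3 UMIs each of Tyrobp and Lyz2, and at least 5 UMIs of Arg1. By this rule 301 cells of tumour 1 and 38 cells of tumour 2 were Arg1-high, 339 of the 4405 tumour barcodes that passed the gene and mitochondrial filter and of 10374 such barcodes in all 4 libraries. They were compared within each tumour with Arg1-zero cells, which met the same Tyrobp, Lyz2, Epcam and Cd3e limits but had no Arg1 UMI (1205 cells of tumour 1 and 365 of tumour 2). Cells with 1 to 4 Arg1 UMIs (318 and 48) entered neither class.

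The study followed mammary tumour formation with the 10x Chromium 3' single-cell assay, with 1 library each at about 2 weeks and at about 5 months after induction and for each of the 2 tumours. All mice were females of mixed background that carried floxed alleles of Trp53 and Brca1 together with a YFP reporter at Rosa26. Both genes were deleted by a Cre adenovirus that was injected into the milk ducts and driven by the keratin 8 promoter, which is active in luminal epithelial cells, so macrophages were not the cells that the promoter targets. The 2 weeks library held sorted YFP+ cells, the 5 months library YFP+ cells and CD45+ leukocytes, and the tumour libraries DAPI-negative live cells of the tumour mass. The number of mice behind each library is not given in the labels, nor whether both tumours came from separate mice.

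Arginase-1 splits arginine into ornithine and urea. In macrophages it draws on the same arginine that nitric oxide synthase uses, and it is a textbook marker of alternatively activated macrophages, of which interleukin 4 and interleukin 13 are the best known inducers. Arg1 is also induced by low oxygen and lactate, and Arg1-expressing myeloid cells are known for limiting T cell responses in tumours through arginine depletion.

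Arg1-high cells were a minority of the Tyrobp and Lyz2 cells of the tumours, and none was found 5 months after induction. They made up 16.5% (exact 95% binomial interval 14.8 to 18.3) of the 1824 Tyrobp and Lyz2 cells of tumour 1 and 8.43% (6.03 to 11.4) of the 451 of tumour 2, against 0 of 398 at 5 months, which allows a share of up to 0.754% by a floor of 3 cells, or 0.923% by the exact interval. The 2 weeks library held 1 Tyrobp and Lyz2 cell. Intervals and limits of this kind cover counting error only. The sorts differed between stages, so the share of macrophages among all cells was set in part by the gates, and the 5 months cells were shallower, with a median of 3202 UMIs. After every cell was thinned to 3000 UMIs, any Arg1 UMI was present in 26.9% of 1824 cells in tumour 1 and 17.0% of 423 in tumour 2, against 0.939% of 213 at 5 months. This left out 28 cells of tumour 2 and 185 at 5 months that were shallower than 3000 UMIs. Before thinning the shares were 33.9%, 19.1% and 0.754%. In cells with at least 3 Epcam UMIs and no Tyrobp UMI, 12.2% of 98 in tumour 1 and 10.8% of 249 in tumour 2 held an Arg1 UMI, at median depths of 12495.5 and 7715 UMIs. In cells with Cd3e and no Tyrobp UMI, 0 of 8 in tumour 1 and 0 of 101 in tumour 2 held one, with exact upper limits of 36.9% and 3.59%.

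**Figure D1:**
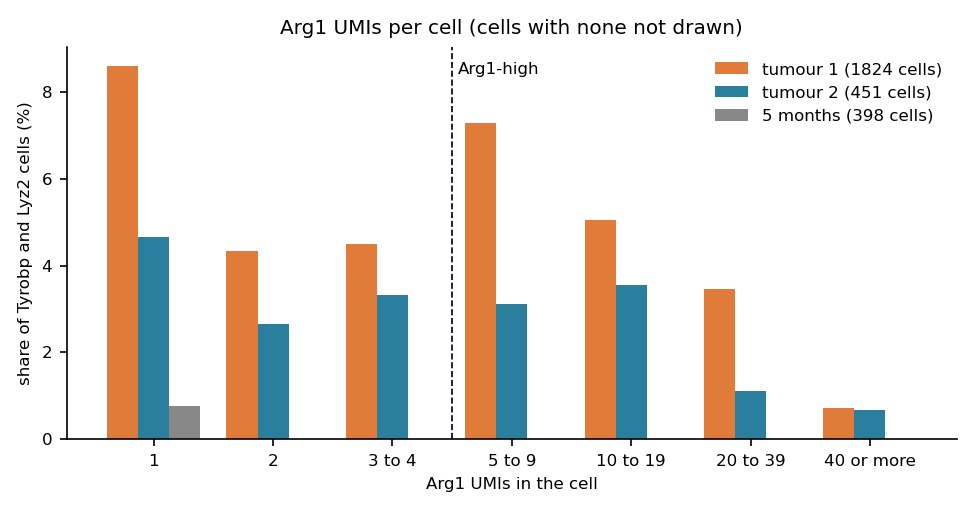
Share of Tyrobp and Lyz2 cells (y axis, percent) by Arg1 UMIs in the cell (x axis), in tumour 1, tumour 2 and the 5 months library; cells with no Arg1 UMI are not drawn and the dashed line marks the limit of 5 UMIs. In tumour 1, 8.61% of cells had 1 UMI and 0.713% had 40 or more, and at 5 months the 3 cells with any Arg1 had 1 UMI each.

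Among the Arg1-high cells Arg1 ranged from 5 to 82 UMIs per cell in tumour 1 (median 11) and from 5 to 89 in tumour 2 (median 12.5). The number of cells fell off without a gap across the limit. In tumour 1, 82 cells had 3 to 4 UMIs and 133 had 5 to 9, and in tumour 2 these were 15 and 14 cells. Just inside the limit, the 32 and 4 cells with 5 Arg1 UMIs had 9180 and 815 CPM (counts per 1e6 UMIs) of Spp1. Just outside it, the 36 and 9 cells with 4 UMIs had 7857 and 1678 CPM. In tumour 2 the 3 cells of highest Arg1 held 32.5% of the 665 Arg1 UMIs of the class.

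The cells carried the markers of macrophages. All 12 macrophage markers (among them Csf1r, Adgre1, Mertk, C1qa and Apoe) had UMIs, and their summed level was 41319 and 28570 CPM in Arg1-high cells of tumours 1 and 2, against 42020 and 31605 CPM in Arg1-zero cells. Of the 8 dendritic cell markers, 4 had UMIs in the Arg1-high cells of tumour 1 and 2 in those of tumour 2. Flt3, Zbtb46, Cd209a and Xcr1 were at 0 in the Arg1-high cells of both tumours, where 3 UMIs were worth 1.31 and 10.9 CPM. Zbtb46 was also at 0 in the Arg1-zero cells of tumour 2. Depth was close, with medians of 7206 and 7184 UMIs per Arg1-high cell, against 6373 and 6170 per Arg1-zero cell, and the median mitochondrial share was 2.67% and 2.91%, against 3.31% and 2.41%. Tumours 1 and 2 shared 7 cell barcodes, and other pairs of libraries shared 2 to 16. Of the rule's own genes, Lyz2, a lysozyme of myeloid cells, was at 18108 and 9209 CPM in Arg1-high cells, against 8781 and 6593 CPM in Arg1-zero cells, and Tyrobp, an adaptor of activating myeloid receptors, was at 3004 and 3001 CPM, against 3571 and 3248 CPM. The limits on both genes chose these cells, so no test is given for them.

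Gene levels below are sums of UMIs over the cells of a class in a tumour, as CPM scaled by TMM factors, with tumour 1 before tumour 2. Each gene was tested with edgeR's quasi-likelihood test on the 4 sums with tumour as a block and adjusted by the Benjamini-Hochberg method over all 8712 genes tested, with an adjusted p under 0.05 as the limit for a call. Of these genes 77 (0.884%) rose in Arg1-high cells and 47 (0.539%) fell, or 1.42% in either direction. All but Fabp4 and Tnc of the 124 had the same direction in both tumours. The fit had 1 residual degree of freedom. Its p-values set the difference between classes against how far that difference varied between these 2 tumours, with a spread estimated in part from all genes tested. They do not measure the spread over other tumours. Without the block 0 genes were called by edgeR and 275 had an unadjusted p under 0.05, while DESeq2 with the block called 46 higher and 18 lower. With 1 sum left out, and so without the block, edgeR called 1 higher and 0 lower without the Arg1-high cells of tumour 1, 0 and 0 without those of tumour 2, 0 and 8 without the Arg1-zero cells of tumour 1, and 80 and 32 without those of tumour 2.

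Among genes with at least 50 CPM in the Arg1-high cells of both tumours, those that rose most encoded chemokines, matrix and protease proteins, and a costimulatory receptor. Ccl9, a chemokine for myeloid cells, was at 1053 and 1717 CPM in Arg1-high cells, against 248 and 425 CPM in Arg1-zero cells (log2 difference 2.05 ± 0.145 SE, adjusted p = 0.000667). Both Arg1-high sums lay above both Arg1-zero sums. Ccl6, a related chemokine, was at 2419 and 2679 CPM, against 360 and 870 CPM (2.19 ± 0.238, adjusted p = 0.00382), again with no overlap. Fn1, which encodes the matrix protein fibronectin, was at 2188 and 1612 CPM, against 623 and 334 CPM (2.03 ± 0.159, adjusted p = 0.000829). Mmp12, the macrophage elastase, was at 1622 and 932 CPM, against 167 and 257 CPM (2.60 ± 0.296, adjusted p = 0.00461). In tumour 2 a single cell held 59.6% of the 267 Mmp12 UMIs of the Arg1-high class, whereas for Fn1 the highest cell held 8.01% of 462. Without the highest cell of each gene in each sum, Mmp12 still rose, by 2.35.

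Tnfrsf9, the costimulatory receptor 4-1BB, was at 173 and 119 CPM in Arg1-high cells, against 15.3 and 31.4 CPM in Arg1-zero cells (2.89 ± 0.347, adjusted p = 0.00518). Sdc1, a cell surface proteoglycan also known as the plasma cell marker CD138, was at 75.0 and 94.2 CPM, against 11.1 and 22.5 CPM (2.49 ± 0.265, adjusted p = 0.00382). B and plasma cell markers were low throughout, at a summed 21.8 and 10.9 CPM in Arg1-high cells, against 114 and 44.0 CPM in Arg1-zero cells. Mt2, a metallothionein that binds zinc and copper, was at 878 and 492 CPM, against 171 and 148 CPM (2.07 ± 0.194, adjusted p = 0.00198). Each of these genes was separated by class in both tumours. The rest of the 12 that rose most were Cxcl3, a neutrophil chemokine, Rgcc, a cell cycle regulator, Bnip3, Ero1l, an oxidase of protein folding, and Inhba, a subunit of activin, with log2 differences of 1.71 (Inhba) to 2.01 (Cxcl3). In tumour 1 Inhba was found in 30 of 301 Arg1-high cells, and 1 cell held 21.9% of its 137 UMIs.

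**Figure D2:**
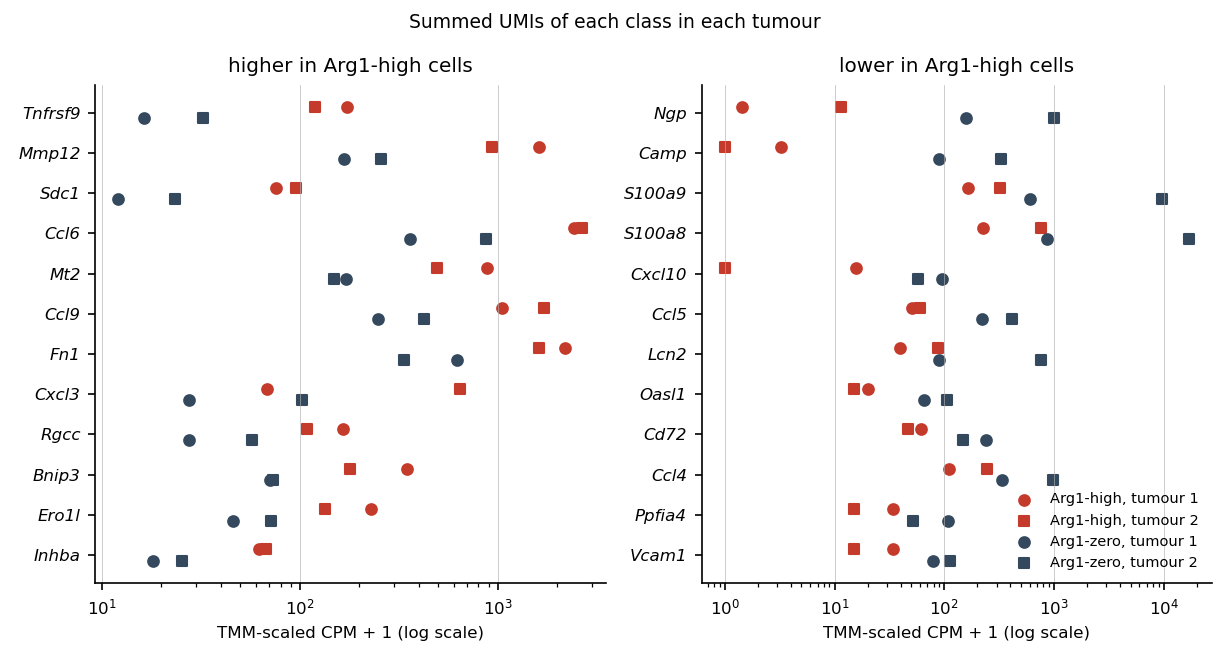
Summed level (x axis, TMM-scaled CPM + 1, log scale) of the 12 genes that rose most and the 12 that fell most, among genes with at least 50 CPM in the higher class of both tumours, in Arg1-high cells (red) against Arg1-zero cells (dark), with tumour 1 as circles and tumour 2 as squares. Ccl9 lay at 1053 and 1717 CPM in Arg1-high cells, against 248 and 425 CPM in Arg1-zero cells, and S100a8 spanned 866 to 16928 CPM among the Arg1-zero sums.

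More Arg1-high than Arg1-zero cells carried transcripts of these genes. In cells thinned to 3000 UMIs, Ccl6 was detected in 83.7% and 81.6% of Arg1-high cells, against 39.8% and 46.8% of Arg1-zero cells. Fn1 was detected in 89.4% and 86.8% of Arg1-high cells, against 53.5% and 39.1% of Arg1-zero cells. Ccl9 was detected in 70.1% and 65.8% of Arg1-high cells, against 38.9% and 40.9% of Arg1-zero cells. For all 3 genes the share was higher in Arg1-high cells of both tumours. The exact 95% intervals of the classes were apart within each tumour, but they cover counting error only, and cells are not replicates. The 3 genes were chosen because they rose in these same cells, so the shares are a description and no separate support. Without thinning, Ccl6 was in 90.4% and 86.8% of Arg1-high cells, against 58.3% and 62.5% of Arg1-zero cells. Tumour cells with at least 3 Epcam UMIs and no Tyrobp, thinned alike, had Ccl6 in 1.02% and 4.94%, Ccl9 in 2.04% and 1.23%, and Fn1 in 24.5% and 21.4%.

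Some genes of the low-oxygen response and of glycolysis rose in Arg1-high cells. Of 19 hypoxia response genes tested, 7 rose and 0 fell, where 0.884% of all genes tested rose; their median log2 difference was 1.12, against −0.02 over all genes. Of 16 glycolysis genes 7 rose and 0 fell, with a median of 0.93. The other 12 and 9 genes did not pass, and among them Slc2a1, a glucose transporter, was at 195 and 66.3 CPM in Arg1-high cells, against 60.8 and 78.2 CPM in Arg1-zero cells. In cells with C1q alone, where 2.17% of 8230 genes rose, 13 of 19 hypoxia genes and 12 of 16 glycolysis genes did. With DESeq2, where 0.528% of genes rose, these were 5 and 4, and with library size scaling in place of TMM, where 0.448% rose, 4 and 1.

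Bnip3, which acts in removal of mitochondria under low oxygen, was at 347 and 178 CPM in Arg1-high cells, against 69.8 and 72.5 CPM in Arg1-zero cells (1.90 ± 0.254, adjusted p = 0.00925). Egln3, an oxygen-sensing prolyl hydroxylase induced by the hypoxia-inducible factors, was at 48.9 and 38.4 CPM, against 4.17 and 8.84 CPM (3.11 ± 0.365, adjusted p = 0.00487), from 109 and 11 UMIs, against 36 and 20. For both genes the classes did not overlap. Mif, a cytokine, was at 1850 and 1553 CPM, against 793 and 718 CPM (1.17 ± 0.135, adjusted p = 0.00466). Ankrd37, P4ha2, a collagen prolyl hydroxylase, Higd1a and Ero1l also rose. P4ha2 rested on 1 UMI in the Arg1-high cells of tumour 2, and its log2 difference was −0.45 without the Arg1-high cells of tumour 1, in a fit without the block. Vegfa, the vessel growth factor, was at 201 and 101 CPM, against 94.0 and 59.6 CPM, and missed the limit (adjusted p = 0.0551). Hilpda, a lipid droplet protein, was at 772 and 558 CPM, against 198 and 373 CPM, and also missed it (adjusted p = 0.0625).

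The glycolysis genes that rose were Pfkl, Aldoa, Tpi1, Gapdh, Pgam1, Eno1 and Ldha. Hk1, Hk2, Hk3 and Gpi1, which encode the enzymes of the opening steps, did not pass, nor did Pgk1 (adjusted p = 0.0863) and Pkm (adjusted p = 0.0896). Hk2 was at 301 and 62.8 CPM in Arg1-high cells, against 149 and 86.6 CPM in Arg1-zero cells, in opposite order in the tumours. Gapdh was at 2289 and 2498 CPM in Arg1-high cells, against 1067 and 1591 CPM in Arg1-zero cells (0.88 ± 0.146, adjusted p = 0.0214). Ldha, the lactate dehydrogenase subunit that makes lactate, was at 1275 and 1301 CPM, against 719 and 843 CPM (adjusted p = 0.0415). Aldoa was at 1458 and 1253 CPM, against 610 and 786 CPM (adjusted p = 0.0259). All 3 differences were under 1 on the log2 scale, with no overlap between classes. Of 16 genes of oxidative phosphorylation 0 were called by edgeR or by DESeq2 and 1 was lower at an unadjusted p under 0.05, with a median of 0.00.

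Promoter sequence of such genes is shown because hypoxia-inducible factors bind a short core, and ACGTG is a form of it. The 250 bases before the RefSeq start of Egln3, Bnip3 and Ldha (GRCm38.p6; 1 of 2 windows for Ldha), 5′ to 3′ on the strand of the gene, follow with ACGTG on either strand in capitals, where overlapping matches make CACGTG and CACGT is the reverse complement.
Egln3 (chr12:54203875-54204124, minus strand): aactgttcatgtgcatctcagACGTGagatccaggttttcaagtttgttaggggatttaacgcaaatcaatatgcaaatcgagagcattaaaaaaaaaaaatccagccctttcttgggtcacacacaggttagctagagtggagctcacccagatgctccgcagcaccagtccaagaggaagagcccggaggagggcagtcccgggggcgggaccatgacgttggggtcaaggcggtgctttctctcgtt
Bnip3 (chr7:138909507-138909756, minus strand): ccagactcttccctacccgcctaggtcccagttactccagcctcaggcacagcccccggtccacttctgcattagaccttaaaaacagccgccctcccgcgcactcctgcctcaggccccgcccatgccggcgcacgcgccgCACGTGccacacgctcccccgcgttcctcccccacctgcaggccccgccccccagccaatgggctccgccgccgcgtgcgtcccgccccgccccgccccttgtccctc
Ldha (chr7:46845554-46845803, plus strand): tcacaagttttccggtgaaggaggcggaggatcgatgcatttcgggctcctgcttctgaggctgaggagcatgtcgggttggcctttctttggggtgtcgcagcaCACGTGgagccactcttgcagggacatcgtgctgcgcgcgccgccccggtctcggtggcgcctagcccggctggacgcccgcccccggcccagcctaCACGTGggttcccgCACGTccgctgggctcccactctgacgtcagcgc
ACGTG on either strand was in such a window for 7 of the 13 called hypoxia and glycolysis genes with a RefSeq entry (53.8%). It was there for 26.8% of the 6729 tested genes with one and 18.5% of all 27025 genes with one, and in 16.6% of all 32851 windows. Of all called genes with an entry, it was found in 19 of 53 that rose (35.8%) and 7 of 32 that fell (21.9%). These are matches of letters and say nothing of binding. The 13 genes come from lists named for hypoxia and glycolysis, and no share is given for the uncalled members of those lists. The 53.8% can therefore not be tied to the difference between Arg1-high and Arg1-zero cells.

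**Figure D3:**
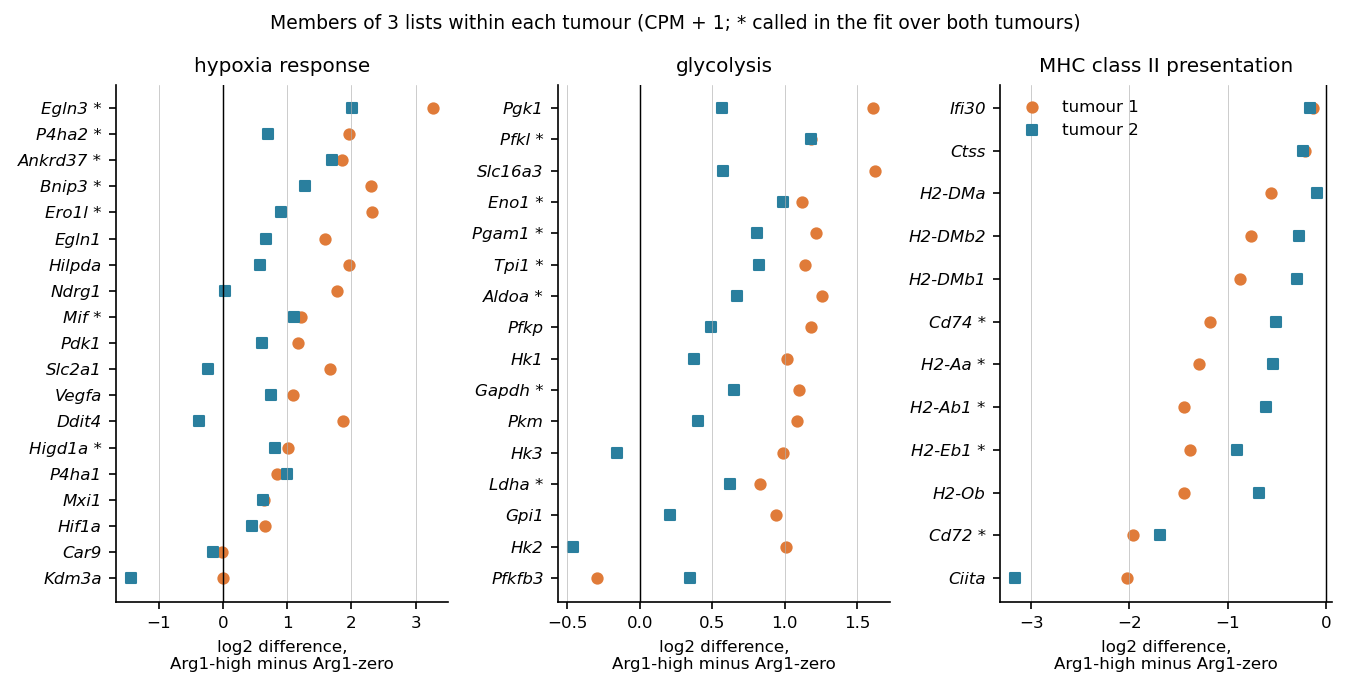
Log2 difference of Arg1-high minus Arg1-zero cells within tumour 1 (orange) and tumour 2 (blue), from CPM + 1, for each tested gene of the hypoxia response, glycolysis and MHC class II lists (y axis; an asterisk marks genes called in the fit over both tumours). The hypoxia and glycolysis genes lay mostly above 0, with 15 of 19 and 13 of 16 higher in both tumours, against 24.4% of all genes tested. All 12 of the MHC class II list lay below 0 in both, against 31.2% of all genes tested.

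Transcripts of several MHC class II genes, whose products present antigen to T cells, were lower in Arg1-high cells. Of 12 genes of the list 5 fell and 0 rose, where 0.539% of all genes fell, and all 12 were lower in both tumours, against 31.2% of all genes tested. The median was −0.88. H2-Ab1, which encodes a class II beta chain, was at 2742 and 5411 CPM in Arg1-high cells, against 7445 and 8272 CPM in Arg1-zero cells (−1.03 ± 0.175, adjusted p = 0.0235). Cd74, the invariant chain, was at 10644 and 16422 CPM, against 24112 and 23300 CPM (−0.84 ± 0.143, adjusted p = 0.0235). Neither gene's classes overlapped. H2-Aa, H2-Eb1 and Cd72, a coreceptor best known from B cells, also fell. Cd72 was at 61.0 and 45.4 CPM, against 242 and 148 CPM (−1.90 ± 0.212, adjusted p = 0.00403). In thinned cells, 92.0% and 86.8% of Arg1-high cells had at least 3 UMIs of H2-Aa, H2-Ab1, H2-Eb1 and Cd74 together, against 97.0% and 82.9% of Arg1-zero cells, so most cells of either class carried class II transcripts. Ciita, the master regulator of class II genes, had 2 and 0 UMIs in Arg1-high cells, against 58 and 18 in Arg1-zero cells. These raw counts come from sums of 2295901 and 275918 UMIs in Arg1-high cells, against 8482937 and 2320053 in Arg1-zero cells. In tumour 2 the count of 0 allows up to 10.5 CPM by a floor of 3 UMIs, so no difference can be read there. The class I list had 0 of 12 genes called by edgeR or by DESeq2 and 8 lower at an unadjusted p under 0.05, with a median of −0.56 and 11 lower in both tumours.

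Dendritic cells carry class II genes at high levels, and their markers summed to 5.66 and 18.1 CPM in Arg1-high cells, against 27.8 and 45.7 CPM in Arg1-zero cells; their part in the fall was not tested as such. In cells with C1q alone, 276 and 24 Arg1-high cells against 1172 and 235 Arg1-zero cells, Cd74 was still lower (−0.83, adjusted p = 0.000503). There 5 genes of the class II list, which also holds Cd72, fell, where 1.47% of all genes did. Without cells that had at least 3 UMIs of S100a8, S100a9 and Retnlg together or any of Flt3, Cd74 was lower by a similar amount (−0.87) but missed the limit (adjusted p = 0.970), with 7 Arg1-high cells left in tumour 2. With DESeq2 in place of edgeR, where 0.207% of genes fell, 2 genes of the list did. With library size scaling, where 0.195% fell, 1 did. Cd74 was not called by DESeq2 (adjusted p = 0.185).

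Among genes with at least 50 CPM in the Arg1-zero cells of both tumours, neutrophil granule genes fell most. Ngp, a neutrophil granule protein, was at 0.449 and 10.5 CPM in Arg1-high cells, against 156 and 1010 CPM in Arg1-zero cells (−7.28 ± 0.339, adjusted p = 3.39e-05). The counts behind it were 1 and 3 UMIs in Arg1-high cells. In tumour 1, 3 Arg1-zero cells held 96.9% of its 1345 UMIs. S100a8, a calcium-binding protein abundant in neutrophils and monocytes, was at 224 and 768 CPM, against 866 and 16928 CPM (−3.19 ± 0.480, adjusted p = 0.0144), and in tumour 2 it was present in 34 of 38 Arg1-high and 316 of 365 Arg1-zero cells. S100a9, Camp and Lcn2, further granule and antimicrobial proteins, also fell, Lcn2 not in cells with C1q alone (adjusted p = 0.142). Beside the granule genes, Ppfia4 was at 32.8 and 14.0 CPM, against 106 and 51.2 CPM (−1.73 ± 0.250, adjusted p = 0.0126). Vcam1 was at 33.2 and 14.0 CPM, against 77.9 and 113 CPM (−1.61 ± 0.321, adjusted p = 0.0487). The 8 neutrophil markers summed to 505 and 1479 CPM in Arg1-high cells, against 1627 and 27811 CPM in Arg1-zero cells, a difference carried mainly by S100a8 and S100a9, the 2 of 8 markers that fell. Of the 8, 5 were lower in both tumours, and Retnlg was at 31.4 and 17.4 CPM, against 22.6 and 1400 CPM. In thinned cells, 4.65% and 36.8% of Arg1-high cells had at least 3 UMIs of S100a8, S100a9 and Retnlg together, against 3.90% and 32.1% of Arg1-zero cells, so the share of such cells was not lower while the summed level was. The part of neutrophil transcripts in these falls was not tested. In cells with C1q alone, S100a8 fell by 1.28 and Ngp by 6.01 on the log2 scale. Without cells that had at least 3 UMIs of S100a8, S100a9 and Retnlg together or any of Flt3, a limit that itself uses S100a8, that gene was 0.11 higher (adjusted p = 1.00).

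Among chemokines and cytokines the direction was mixed. Over all genes tested, 0.884% rose and 0.539% fell. Of 18 chemokine genes 3 rose (Ccl6, Ccl9 and Cxcl3) and 2 fell (Ccl4 and Ccl8), with a median of 0.02. Without the Arg1-zero cells of tumour 1, and so without the block, Ccl8 was at a log2 difference of 0.81. Ccl4, a macrophage inflammatory chemokine, was −1.80 and lost its call when classes were called on thinned cells (−0.54, adjusted p = 0.483), and Cxcl3 lost its call in cells with C1q alone (adjusted p = 0.0517). Of 19 inflammatory genes 1 rose (Saa3) and 2 fell (Cxcl10 and Ccl5), with a median of −0.03. Ccl5, a T cell chemoattractant, was at 49.8 and 59.3 CPM in Arg1-high cells, against 220 and 415 CPM in Arg1-zero cells (−2.38 ± 0.220, adjusted p = 0.00198). Cxcl10, an interferon-induced T cell chemoattractant, was at 14.8 and 0 CPM, against 93.7 and 56.1 CPM (−2.87 ± 0.374, adjusted p = 0.00857). For both genes, both Arg1-high sums lay below both Arg1-zero sums. Il1b was at 355 and 2212 CPM, against 302 and 2015 CPM, and was not called. For Saa3, an acute phase protein, the tumours differed more than the classes, with 153 and 1071 CPM in Arg1-high cells, against 39.3 and 490 CPM in Arg1-zero cells. Its log2 difference was 1.54 ± 0.213 (adjusted p = 0.0115), and −0.78 without the Arg1-high cells of tumour 2 and without the block. A single cell held 55.0% of the 342 Saa3 UMIs of Arg1-high cells in tumour 1, and 3 cells held 92.8% of the 307 in tumour 2. Without the highest cell of each gene in each sum the difference was 0.74 (adjusted p = 0.0330). Of 20 interferon response genes 0 were called by edgeR or by DESeq2 and 4 were lower at an unadjusted p under 0.05, with a median of −0.47.

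The matrix and protease list had 5 of 19 genes up and 0 down, where 0.884% of all genes tested rose and 0.539% fell. Its median log2 difference was 0.54, with 0.72 within tumour 1 and −0.10 within tumour 2. Thbs1, thrombospondin 1, was at 1023 and 3025 CPM in Arg1-high cells, against 392 and 1063 CPM in Arg1-zero cells (1.45 ± 0.134, adjusted p = 0.00198), with the highest cell of tumour 2 holding 7.73% of 867 UMIs. Within each tumour Arg1-high cells had more, although the Arg1-zero sum of tumour 2 exceeded the Arg1-high sum of tumour 1. Fn1, Adam8, a membrane protease, and Mmp19 also rose, Mmp19 with a log2 difference of −0.084 without the Arg1-high cells of tumour 1 and without the block. Ctsl, a lysosomal cathepsin, and Mmp12 were the members of the 19 lipid-associated macrophage genes that rose beside Fabp4, a lipid chaperone that had no UMI in Arg1-high cells of tumour 2 and was at −6.73 without those of tumour 1 and without the block. Trem2, Gpnmb, Fabp5 and Apoe were not called.

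The alternative activation list did not move as 1 group. Of 17 genes 5 rose and 2 fell, where 0.884% of all genes tested rose and 0.539% fell, with a median of 0.09. Msr1, a scavenger receptor, was at 364 and 265 CPM in Arg1-high cells, against 142 and 167 CPM in Arg1-zero cells (1.06 ± 0.206, adjusted p = 0.0451). Tgm2, a transglutaminase, was at 311 and 415 CPM, against 144 and 154 CPM (1.26 ± 0.176, adjusted p = 0.0116). Folr2, a folate receptor, Socs2 and Ccl24 rose as well. Folr2 was at −0.37 without the Arg1-high cells of tumour 1 and without the block. Ccl24 had 19 and 51 UMIs in Arg1-high cells, against 4 and 1 in Arg1-zero cells, and 1 cell of tumour 2 held 76.5% of the 51. Ccl17, a T cell chemokine, and Il10 fell. Mrc1, the mannose receptor, was at 98.3 and 97.7 CPM, against 64.9 and 51.7 CPM, and was not called. Retnla had 6.28 and 6.98 CPM, against 53.3 and 0 CPM, and Chil3 had 3.14 and 2338 CPM, against 18.6 and 1013 CPM, neither of them called.

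In arginine and polyamine metabolism, 1 of 17 genes rose and 0 fell, where 0.884% of all genes tested rose and 0.539% fell, with a median of −0.08. The gene that rose was Nos2, inducible nitric oxide synthase, with only 32 and 2 UMIs in Arg1-high cells, against 12 and 4 in Arg1-zero cells (14.4 and 6.98 CPM, against 1.39 and 1.77 CPM), and it lost the call with DESeq2 (adjusted p = 0.566). Slc7a2, a cationic amino acid transporter that brings in arginine, was at 132 and 48.8 CPM, against 43.1 and 33.1 CPM, and missed the limit (adjusted p = 0.0557). Arg2, the mitochondrial arginase, was at 29.2 and 66.3 CPM, against 12.2 and 80.9 CPM. Odc1, the enzyme that turns ornithine into putrescine, was at 61.5 and 17.4 CPM, against 70.8 and 95.9 CPM. The classes of Arg2 were in opposite order in the 2 tumours, and neither gene was called.

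Other lists had few called genes, where 0.884% of all genes tested rose and 0.539% fell. Hmox1, the heme oxygenase, and Mt2 rose among 16 iron and heme genes, although 77.8% of the 72 Hmox1 UMIs of the Arg1-high cells of tumour 2 were in 1 cell, and without the highest cell of each gene it was not called (adjusted p = 0.332). F13a1, a clotting factor subunit of monocytes and macrophages, rose among 16 monocyte genes, whose median was −0.47, with 2 higher and 8 lower in both tumours. The 8 monocyte markers summed to 230 and 3429 CPM in Arg1-high cells, against 213 and 2000 CPM in Arg1-zero cells. In tumour 2 Chil3 alone was at 2338 CPM (TMM-scaled) in Arg1-high cells, against 1013 CPM in Arg1-zero cells. Of the 7 markers tested, 1 was higher and 1 lower in both tumours. At least 3 UMIs of the 8 markers were in 10.3% and 55.3% of thinned Arg1-high cells, against 4.98% and 38.5% of Arg1-zero cells. The part of monocyte transcripts in the other differences was not tested. Trem1, an amplifying receptor of inflammation, rose among 15 checkpoint and suppression genes, in which Cd274, encoding PD-L1, was at 55.2 and 83.7 CPM in Arg1-high cells, against 21.4 and 52.1 CPM in Arg1-zero cells (adjusted p = 0.0783). Fcgr2b, the inhibitory Fc receptor, rose among 14 pattern and Fc receptor genes. Cst3, a cathepsin inhibitor, fell among 17 lysosome genes. The tissue macrophage and complement list had a median of −0.35, with 0 of 18 genes called by edgeR or by DESeq2, and with 3 higher and 7 lower at an unadjusted p under 0.05. S phase and G2/M genes had 0 of 17 and 0 of 15 called by either tool and 5 each lower at an unadjusted p under 0.05, with medians of −0.68 and −0.75. Lists of 15 stress response, 16 immediate early, 20 transcription factor and 16 cytokine receptor genes had 0 called by either tool, with medians of −0.30, −0.04, 0.26 and −0.29. In thinned cells, 4.65% and 2.63% of Arg1-high cells had at least 3 G2/M UMIs, against 10.4% and 2.06% of Arg1-zero cells.

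**Figure D4:**
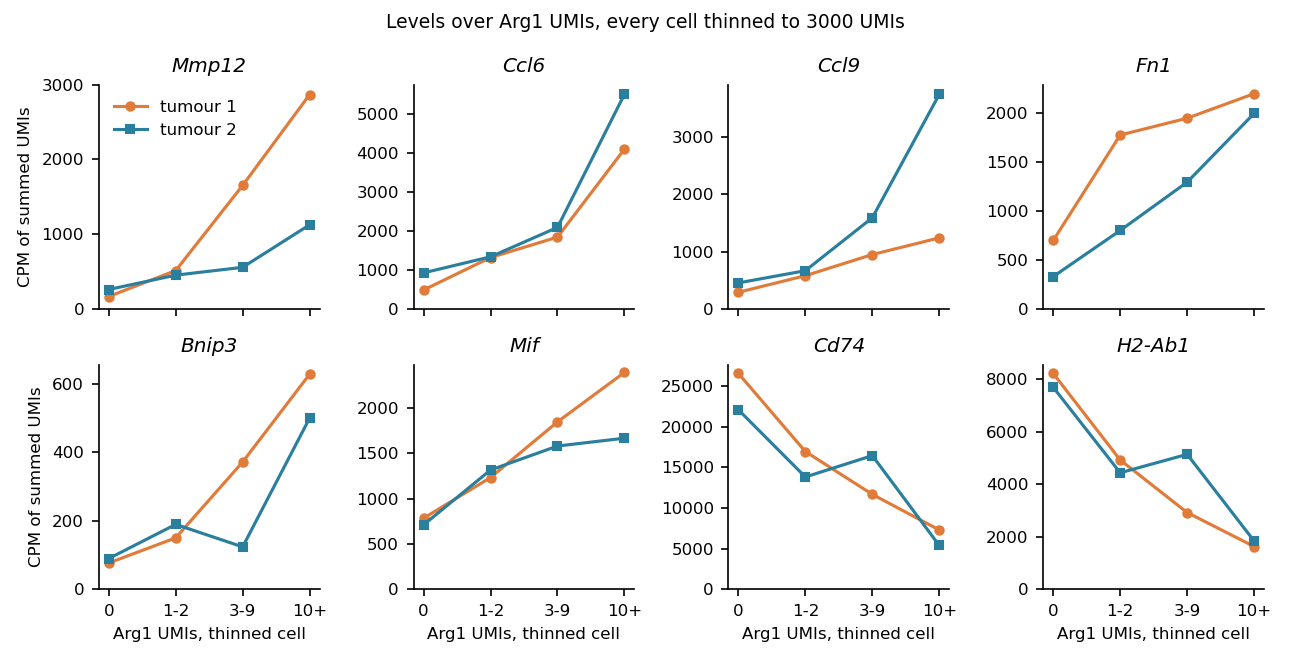
Levels (y axis, CPM of summed UMIs, linear from 0) of 8 genes over 4 bins of Arg1 UMIs per cell (x axis) in cells thinned to 3000 UMIs, for tumour 1 (orange circles) and tumour 2 (blue squares). Mmp12 in tumour 1 was at 165, 511, 1652 and 2869 CPM over 0, 1 to 2, 3 to 9 and 10 or more UMIs, and Cd74 at 26591, 16960, 11678 and 7290 CPM; the last bin of tumour 2 held 8 cells.

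Levels of several of these genes are given along the range of Arg1, in which Mmp12 and Ccl6 were higher in each higher bin of both tumours, while Cd74 and Bnip3 kept one order in tumour 1 and not in tumour 2. Mmp12 in tumour 1 was at 165, 511, 1652 and 2869 CPM in cells with 0, 1 to 2, 3 to 9 and 10 or more Arg1 UMIs, and in tumour 2 at 258, 450, 556 and 1125 CPM. Ccl6 in tumour 1 was at 482, 1314, 1838 and 4093 CPM, and in tumour 2 at 921, 1333, 2086 and 5500 CPM. Cd74 was lower in each higher bin of tumour 1, at 26591, 16960, 11678 and 7290 CPM, while in tumour 2 it was at 22105, 13820, 16457 and 5375 CPM. Bnip3 was at 76.0, 150, 372 and 628 CPM in tumour 1, and at 88.9, 189, 123 and 500 CPM in tumour 2. The bins held 1333, 247, 183 and 61 cells in tumour 1, and 351, 37, 27 and 8 in tumour 2, so the last value of tumour 2 rests on few cells. A single cell held most of the Mmp12 UMIs of the Arg1-high class of tumour 2, so the order of the Mmp12 bins there may rest on that cell. These levels are a description, since Arg1 sorted the cells.

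Spp1, which encodes osteopontin and is named as a marker of these cells, gave different values in the 2 tumours. It was at 8798 and 764 CPM in Arg1-high cells, against 3213 and 1104 CPM in Arg1-zero cells (0.50 ± 0.364, adjusted p = 0.761). The tumour 2 Arg1-zero value rested on 1 barcode with 1830 of the 2498 Spp1 UMIs of that class, which had 14039 UMIs and 3678 genes, no C1qa UMI and a doublet score high enough to be left out by rank. Without it the class stood at 290 CPM unscaled, against 1077 CPM with it, and Spp1 rose by 1.41 (adjusted p = 0.00520), an alternative chosen after seeing the data. In cells with C1q alone the log2 difference was 1.27 (adjusted p = 9.89e-06). The share of cells with at least 3 Spp1 UMIs, at 3000 UMIs per cell, was 85.0% and 36.8% of Arg1-high cells, against 58.3% and 8.53% of Arg1-zero cells. Spp1 UMIs were not particular to macrophages. Any Spp1 UMI was found in thinned cells in 93.4% and 55.3% of Arg1-high cells, against 83.3% and 32.1% of Arg1-zero cells and 74.5% and 39.5% of the Epcam cells without Tyrobp. Without thinning these shares were 97.0% and 71.1%, against 90.9% and 46.3% and, in the Epcam cells, 94.9% and 49.0%. The Epcam cells held 1638 and 1434 CPM of Spp1 unscaled, which in tumour 2 was above the 794 CPM of the Arg1-high cells.

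**Figure D5:**
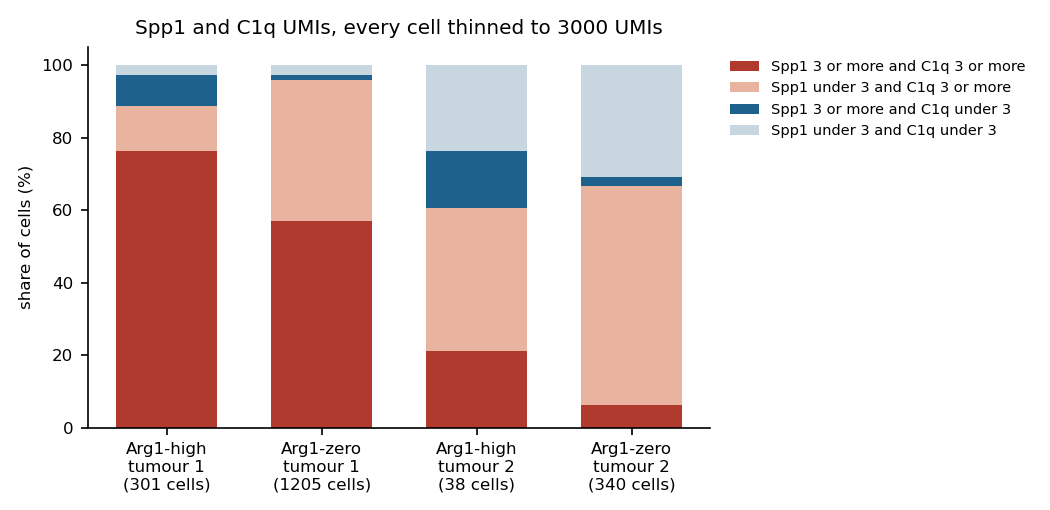
Stacked shares of cells (y axis, percent) with at least 3 UMIs of both Spp1 and C1q (C1qa, C1qb and C1qc together), of C1q without Spp1, of Spp1 without C1q or of neither, in Arg1-high and Arg1-zero cells of each tumour after thinning to 3000 UMIs. Both were found in 76.4% and 21.1% of Arg1-high cells, against 56.9% and 6.18% of Arg1-zero cells.

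Most Arg1-high cells carried C1q, the complement component made by resident-type macrophages, at 88.7% and 60.5% with at least 3 UMIs, against 95.9% and 66.8% of Arg1-zero cells. Within the Arg1-high class, 19 cells of tumour 1 and 11 of tumour 2 had no C1q UMI after thinning, too few for a fit, and 267 and 23 had at least 3. Arg1 was at 2116 and 2377 CPM in C1q-positive cells, against 2298 and 3030 CPM in C1q-negative cells. Apoe was at 32366 and 26029 CPM in C1q-positive cells, against 9491 and 7091 CPM in C1q-negative cells. Ly6c2, the marker of inflammatory monocytes, was at 3.75 and 101 CPM in C1q-positive cells, against 87.7 and 1030 CPM in C1q-negative cells. Plac8, also found in monocytes, was at 17.5 and 87.0 CPM, against 140 and 667 CPM. The order of Apoe, Ly6c2 and Plac8 was the same in both tumours.

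Between the tumours the Arg1-high cells differed in several genes, with 1 library each and so no test. In tumour 1 and tumour 2, Spp1 was at 8798 and 764 CPM, Folr2 at 140 and 14.0 CPM, Klf4, a transcription factor, at 690 and 73.3 CPM, Chil3 at 3.14 and 2338 CPM, Ccl2, the monocyte chemokine, at 218 and 1343 CPM, and Ly6c2 at 7.63 and 338 CPM. In tumour 2 a single cell held 261 of the 385 Ccl2 UMIs (67.8%). Tumour 1 was the higher in the first 3 of these and tumour 2 in the other genes. Monocyte markers summed to 230 CPM in Arg1-high cells of tumour 1 and 3429 CPM in those of tumour 2, so monocyte transcripts moved with the tumour, and their part in these differences was not tested.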

How the data were processed

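UMI counts per gene and cell barcode were used as deposited by the authors for 4 libraries, 1 matrix each, of which 3 list 27998 genes and that of 5 months 28692; the 27998 genes that all 4 share were used. Per the submitters' processing notes, Cell Ranger was used with the mm10 and GRCm38 builds (version not given). The matrices of 2 weeks, 5 months, tumour 1 and tumour 2 hold 1453, 4836, 2712 and 1780 barcodes and total 6722044, 15060411, 23736366 and 13061942 UMIs. The filter on genes and mitochondrial share left 1301, 4668, 2640 and 1765 of these barcodes.

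Counts were summed per tumour and class (2295901 and 275918 UMIs in Arg1-high cells, 8482937 and 2320053 in Arg1-zero cells, tumour 1 first) and tested with edgeR 4.0.16 in R 4.3.3 (filterByExpr, TMM, quasi-likelihood F test, tumour block, Benjamini-Hochberg over 8712 genes). The block is used because each tumour gave both classes. SE is the log2 difference divided by the square root of F. Arg1, Tyrobp, Lyz2, Epcam and Cd3e were not tested. In the Arg1-high sum of tumour 2 a single UMI was worth 3.49 CPM.

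Members and lists were chosen with earlier results of these data known. Named genes are the 12 called genes of largest log2 difference each way with at least 50 CPM in the higher class of both tumours and the same direction in both, up to 4 called members of each list, or the 2 of highest CPM where none was called, and any member of the alternative activation and arginine lists; others were chosen after their values were seen. Scrublet (scanpy 1.11.5) called 0 and 8 doublets by its automatic threshold, which was not used; leaving out the highest scores by rank (57 and 25 barcodes, of them 5 and 0 Arg1-high and 24 and 4 Arg1-zero) was an alternative. DESeq2 1.42.0 was another. The code was tested on simulated data.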

Additional observations from a re-analysis of the deposited data

Results flagged for a closer look

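Barcodes with 5 or more Arg1 UMIs also appeared outside the macrophage rule, among barcodes that the comparisons of classes did not use. In the 2 weeks library there were 6 such barcodes, of which 5 held Epcam and none held Tyrobp, with 5 to 14 Arg1 UMIs. In the 5 months library there were 15, all with Epcam and Krt8, the keratin of luminal cells, and 14 without Tyrobp, with 5 to 19 Arg1 UMIs. Epcam cells without Tyrobp summed to 84.3 CPM of Arg1 at 2 weeks and 84.6 CPM at 5 months. In the tumours there were 20 such barcodes of 816 outside the rule in tumour 1, of which 16 held Epcam, and 14 of 1314 in tumour 2, of which 9 did.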

How the results depend on the processing

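The 77 genes that rose and the 47 that fell depended on the processing. Each tumour gives both classes, so the tumour was a replicate block; without it 0 rose and 0 fell. With DESeq2 46 and 18 were called, with library size scaling 39 and 17, with no filter on low counts 231 and 257. With the Arg1 limit at 3 UMIs 164 and 142 were called, at 10 UMIs 91 and 51, and in cells thinned to 3000 UMIs 156 and 127. With classes called on thinned cells there were 77 and 48, of which 53 and 31 were among the main 77 and 47. In C1q cells alone 179 and 121 were called, without the highest doublet scores 108 and 76, with stricter cell filters 150 and 110, and without G2/M cells 94 and 66. Without S100a8, S100a9, Retnlg or Flt3 cells 74 and 28 were called, with 7 Arg1-high cells left in tumour 2. Of these genes, 43 and 22 were among the main 77 and 47. Chosen after seeing the data, leaving out the highest cell of each gene gave 170 and 131, and leaving out the tumour 2 Spp1 barcode 53 and 32. Leaving out 1 of the 4 sums at a time, without the block, gave 0 to 80 rising and 0 to 32 falling genes; leaving out a whole tumour gives values with no test. The share of Arg1-high cells was 21.0% and 11.8% at a limit of 3 UMIs, 9.21% and 5.32% at 10, and 13.3% in tumour 1 after thinning. With 1 sum left out, a few named log2 differences changed sign: without the Arg1-high cells of tumour 2, Saa3 was −0.78 (3.92 without the Arg1-zero cells of tumour 2). Without the Arg1-high cells of tumour 1, Mmp19 was −0.084 (2.15 without the Arg1-zero cells of tumour 1), P4ha2 −0.45 (3.62), Folr2 −0.37 (3.44) and Fabp4 −6.73 (3.44). Without the Arg1-zero cells of tumour 1, Tnc was 0.86 (−2.89 without those of tumour 2) and Ccl8 0.81 (−2.70 without the Arg1-high cells of tumour 1). In tumour 2 alone Fabp4 was −1.47 and Tnc 0.13, and S100a8 was 0.11 without S100a8, S100a9, Retnlg or Flt3 cells. The cause of these changes was not tested. Of 69 named called genes, 61 kept their sign in every alternative run.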
